A study of Mus musculus with 4 samples.

Results

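Type 2 conventional dendritic cells (cDC2) were examined in live CD45+ cells sorted from C57BL/6 mouse lung. Members were chosen by counts of gate genes: a cell was taken as a cDC2 when it held at least 10 unique molecular identifiers (UMIs, each 1 counted RNA molecule) of H2-Ab1, at least 1 of Flt3 or Cd209a, none of Xcr1, Clec9a, Ccr7, Fscn1, Siglech, Cd79a or Cd3e, and at most 2 of the C1q genes together. This gate held 96 of the 13344 cells that passed quality limits (no fewer than 200 genes, and mitochondrial genes taking no more than 10% of UMIs), out of 14396 barcodes. The 4 groups were lung tumors of Rab37 KO mice given LLC cells, a mouse lung carcinoma line, lung tumors of wild type (WT) mice given the same cells, normal lung of Rab37 KO mice given Matrigel, and normal lung of WT mice given Matrigel, all at day 14. Each group was 1 library, and neither the animals behind a library nor the deleted part of Rab37 is given in the sources used here. Rab37 is a small GTPase of vesicle traffic, and the series asks how it bears on secretion of osteopontin, the product of Spp1, and on macrophages in lung tumors.

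Conventional dendritic cells take up antigen in tissue and present it to T cells. The type 2 subset needs the transcription factors IRF4, ZEB2 and KLF4 and presents peptides on MHC class II, mainly to CD4+ T cells, whereas the type 1 subset (cDC1), which needs IRF8 and BATF3, excels at cross-presentation on MHC class I. In mouse lung, cDC2 are marked by SIRPA, CD11b (Itgam) and, in part, the C-type lectins CD209a, MGL2 and CLEC10A, several of which monocyte-derived cells also carry.

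The gate held 40 cells in tumor Rab37 KO, 10 in tumor WT, 18 in normal Rab37 KO and 28 in normal WT. Their summed counts were 654758, 98131, 204932 and 261089 UMIs in that order, and their median depths were 14847, 9395, 9794 and 8146 UMIs per cell. Levels below are UMIs of a gene per 1000000 summed UMIs of these cells in a library (CPM), and intervals are exact 95% intervals that cover counting error only. With 1 library per group differences between conditions have no replicate error to be held against, and none was tested. To be measured, a gene needed 20 UMIs over both libraries of a comparison, and a difference of 1.5-fold made it higher or lower. Because tumor WT had the fewest UMIs, a measured gene there often rested on a few counts.

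Library facts touch these comparisons. The whole libraries held 30120672, 5213826, 34750859 and 36525943 UMIs in passing cells of tumor Rab37 KO, tumor WT, normal Rab37 KO and normal WT. Rab37 itself had 0.266 CPM in tumor Rab37 KO against 4.80 CPM in tumor WT, and 0.374 CPM in normal Rab37 KO against 8.60 CPM in normal WT, over all passing cells. No cDC2 held a Rab37 UMI in any library, which allows up to 5.63, 37.6, 18 and 14.1 CPM in that order, so the knockout could not be seen in these cells. By Xist and Y-linked genes, 35 of the 40 cells of tumor Rab37 KO held Y-linked UMIs alone and all 10 of tumor WT held Xist alone, so genotype and sex cannot be told apart in the tumor comparison. Normal lung libraries held both kinds, 8 Y-linked and 7 Xist cells in Rab37 KO and 7 Y-linked and 11 Xist cells in WT. In normal WT 1 more cell held both Xist and Y-linked UMIs. Neither was seen in 5, 0, 3 and 9 cells of tumor Rab37 KO, tumor WT, normal Rab37 KO and normal WT. The tumor over normal comparisons thus also set unlike sex makeups side by side, with opposite shifts in Rab37 KO and WT. No barcode of a cDC2 occurred in another library, and at most 6 passing barcodes were shared by any pair of libraries.

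Of the 96 cells, 31 held both Flt3, the receptor of the dendritic cell growth factor FLT3L, and Cd209a, a C-type lectin. Another 19 held Flt3 without Cd209a and 46 held Cd209a without Flt3. The gate rested on a single UMI of the pair in 20 cells. Just inside the limit on H2-Ab1, a chain of MHC class II, lay 4 cells with 10 to 14 UMIs, and 5 cells with 5 to 9 UMIs lay just outside. A further 430 cells met every other limit but had 0 UMIs of Flt3 and Cd209a. As a description of the gate genes, Cd209a had 666, 540, 542 and 521 CPM in tumor Rab37 KO, tumor WT, normal Rab37 KO and normal WT, and Flt3 had 42.8, 51.0, 122 and 91.9 CPM. In mm10 Cd209a lies at chr8:3743397-3748984 (minus strand), Flt3 at chr5:147330741-147400489 (minus strand) and H2-Ab1 at chr17:34257689-34269419 (plus strand).

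Markers that the gate did not use bore the label out in part. None of the cDC2 markers tested was called higher or lower than in C1q macrophages or mature dendritic cells (below). The list of 10 cDC2 markers, which includes Cd209a of the gate, summed to 3355, 3108, 1962 and 1888 CPM in the same order, with 10, 9, 9 and 10 members detected, and Clec4a4 was at 0 in tumor WT and normal Rab37 KO. Zbtb46, a factor that marks the conventional dendritic cell lineage, was found in 5 of 40, 2 of 10, 9 of 18 and 5 of 28 cells. Irf4 was sparse, with 13.8, 30.6, 39.0 and 15.3 CPM. The classical monocyte list summed to 1972, 1600, 2001 and 4232 CPM, with Ly6c2 and Chil3 at 0 in tumor WT. Without the cells that carried another type's RNA (below) it summed to 1982, 1600, 918 and 2758 CPM. Monocyte-derived cells with MHC class II thus cannot be told apart from cDC2 by this gate. Of the plasmacytoid dendritic cell markers, Siglech (by the gate), Ccr9, Ly6d, Cox6a2 and Klk1 were at 0 in every library. Bst2, Tcf4 and Runx2 were detected in every library. This list of 8 summed to 331.4, 346.5, 424.5 and 302.6 CPM in the same order.

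Some cells also carried RNA of another type. Neutrophil genes took more than 1% of UMIs in 7, 0, 1 and 2 cells of tumor Rab37 KO, tumor WT, normal Rab37 KO and normal WT, and up to 25.1% in 1 cell of tumor Rab37 KO. Counting alveolar macrophage, T or NK and endothelial genes as well, 8, 0, 3 and 5 cells (16 in all) passed a limit for another type. The neutrophil list summed to 16930, 153, 6085 and 2428 CPM over all cells, and to 1579, 153, 109 and 212 CPM without those 16 cells. Scrublet, a doublet caller, marked 0, 0, 1 and 1 of the cDC2, and they were kept. Values without the 16 cells stand beside many of the results below. The other results are given over all 96 cells, these 16 included.

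**Figure D1:**
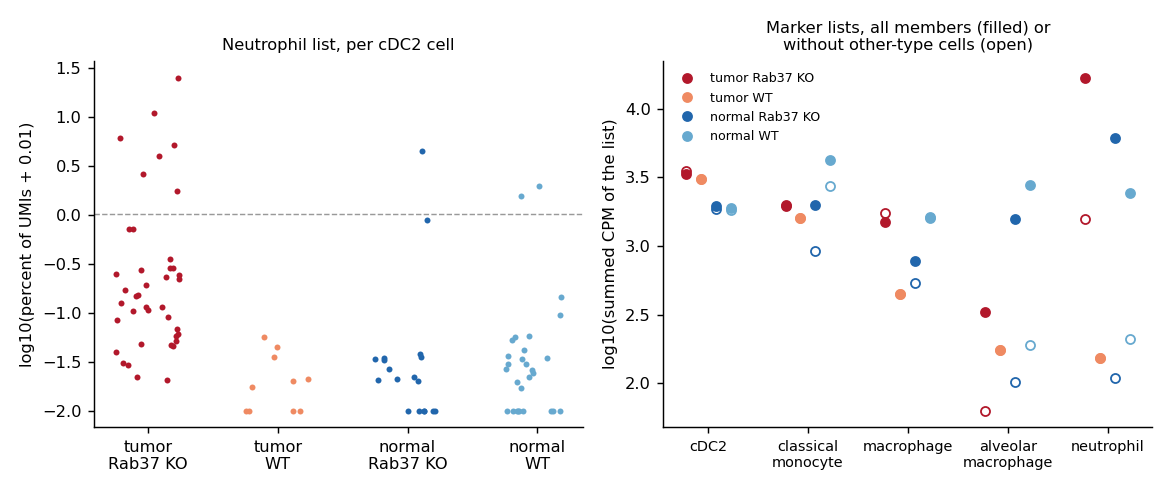
Left, the share of each cDC2 cell's UMIs from the neutrophil list as log10(percent + 0.01), 1 point per cell, with the 1% limit dashed; 7 of the points above it belong to tumor Rab37 KO. Right, log10 of the summed CPM of 5 marker lists per library over all cDC2 (filled) and without the 16 cells that carry another type's RNA (open); the neutrophil and alveolar macrophage lists drop most and the cDC2 list hardly moves.

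cDC2 made up a larger share of sorted cells in both tumor libraries than in either normal library. The gate took 1.47% of passing cells in tumor Rab37 KO (interval 1.05 to 1.99), 1.55% in tumor WT (0.744 to 2.82), 0.381% in normal Rab37 KO (0.226 to 0.601) and 0.534% in normal WT (0.355 to 0.771). The interval of tumor WT, with 10 cells, overlapped that of normal WT, while those of tumor and normal Rab37 KO did not overlap. Within the cells of 3 dendritic cell gates (cDC2, cDC1 and mature dendritic cells with Ccr7 or Fscn1), cDC2 were 70.2% of 57 cells in tumor Rab37 KO and 52.6% of 19 in tumor WT, against 19.8% of 91 in normal Rab37 KO and 20.4% of 137 in normal WT. The cDC1 gate held 8, 1, 43 and 58 cells and the mature gate 9, 8, 30 and 51. Within a tissue the cDC2 shares of Rab37 KO and WT had overlapping intervals. A share depends on what else the CD45+ sort took, and on the depth of cells, since the gate needs single UMIs to be seen or absent.

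**Figure D2:**
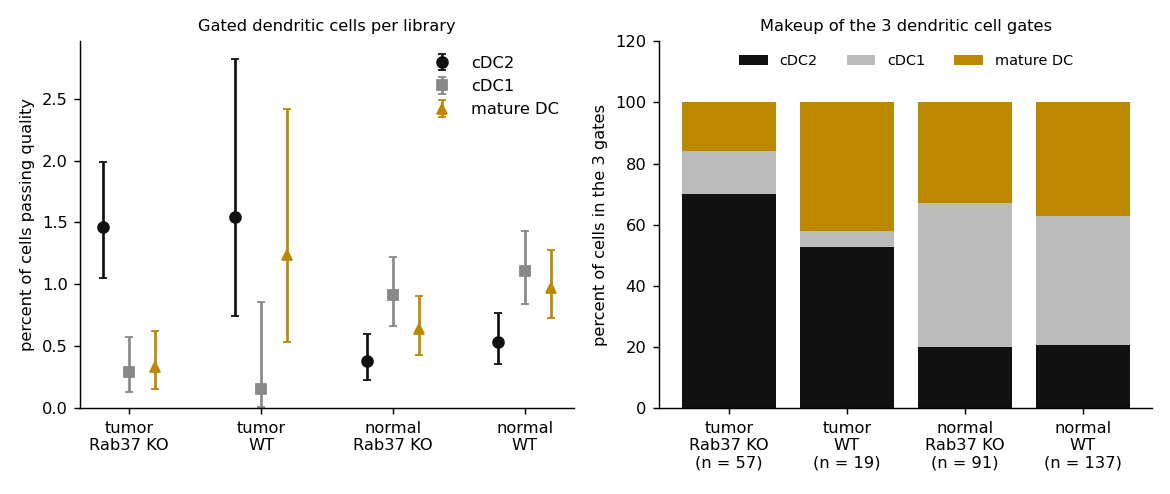
Left, the percent of passing cells in the cDC2, cDC1 and mature dendritic cell gates in each library with exact 95% binomial intervals. Right, the makeup of the 3 gates together; cDC2 are 70.2% and 52.6% in the tumor libraries, against 19.8% and 20.4% in the normal ones.

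Mgl2 and Clec10a, C-type lectins of the cDC2 surface, were higher in tumor than in normal lung in both genotypes. Mgl2, a galactose-type lectin, had 667 CPM in tumor Rab37 KO (24 of 40 cells) against 151 CPM in normal Rab37 KO (6 of 18), and 978 CPM in tumor WT (5 of 10) against 130 CPM in normal WT (9 of 28). The tumor over normal ratios were 4.41 (interval 3.06 to 6.57) in Rab37 KO, or 7.02 without the 16 other-type cells, and 7.51 (5.03 to 11.5) in WT. Its neighbour Clec10a, a related lectin 18646 bases away on chromosome 11, had 290 CPM in tumor Rab37 KO and 112 CPM in normal Rab37 KO, a ratio of 2.59 (1.67 to 4.18), and 316 CPM in tumor WT against 57.5 CPM in normal WT, a ratio of 5.50 (2.88 to 11). T cells, set beside cDC2 as a type that should lack such genes, had at most 2.11 CPM of Mgl2 and 5.54 CPM of Clec10a in any library. In tumor WT the T cells are not a clean measure of background, since 12 of 54 held S100a9, a neutrophil gene, at 14770 CPM in all, while cDC2 of that library had 10.2 CPM, and whether the T cell gate holds cells mixed with another type was not tested. After each cell was thinned to 4000 UMIs, leaving out 0, 0, 2 and 1 shallower cells, Mgl2 was found in 52.5%, 50%, 31.3% and 25.9% of cells of tumor Rab37 KO, tumor WT, normal Rab37 KO and normal WT, against 60.0%, 50%, 33.3% and 32.1% unthinned. T cells held Mgl2 in at most 0.806% of cells in any library. Of the C-type lectin list, 7 of 11 measured were higher and 2 lower in tumor Rab37 KO (median log2 ratio 1.19), against 28.6% higher and 16.7% lower of 4492 measured genes. In WT, 4 of 12 were higher and 5 lower in tumor (median -0.52), or 5 higher and 3 lower of 10 without the other-type cells (median 0.60), against 21.2% higher and 25.5% lower of 2435 measured genes.

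Mgl2 lies at chr11:70130329-70137550 and Clec10a at chr11:70156197-70170834 (mm10, both on the plus strand). Other cDC2 markers followed in part. Itgam, the integrin chain CD11b, had 518 CPM in tumor Rab37 KO against 181 CPM in normal Rab37 KO and 418 CPM in tumor WT against 149 CPM in normal WT, ratios of 2.87 (2.04 to 4.14) and 2.80 (1.76 to 4.45). Sirpa, the inhibitory receptor for CD47, had 228 CPM (36 of 40 cells) in tumor Rab37 KO against 112 CPM (4 of 18 cells) in normal Rab37 KO, a ratio of 2.03. It became 6.87 without the 16 other-type cells, when normal Rab37 KO was left with 3 UMIs in 1 cell and 1 UMI in another. In WT, Sirpa had 204 CPM in tumor and 241 CPM in normal lung, with a ratio of 0.845 whose interval spanned 1 (0.484 to 1.42) and that became 1.55 without those cells. Klf4 and Itgax had tumor over normal ratios with intervals that spanned 1 in both genotypes. Of the 7 cDC2 markers outside the gate that were measured, 4 were higher and 0 lower in Rab37 KO and 3 higher and 1 lower in WT. Of all measured genes, 28.6% were higher and 16.7% lower in Rab37 KO, and 21.2% higher and 25.5% lower in WT.

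**Figure D3:**
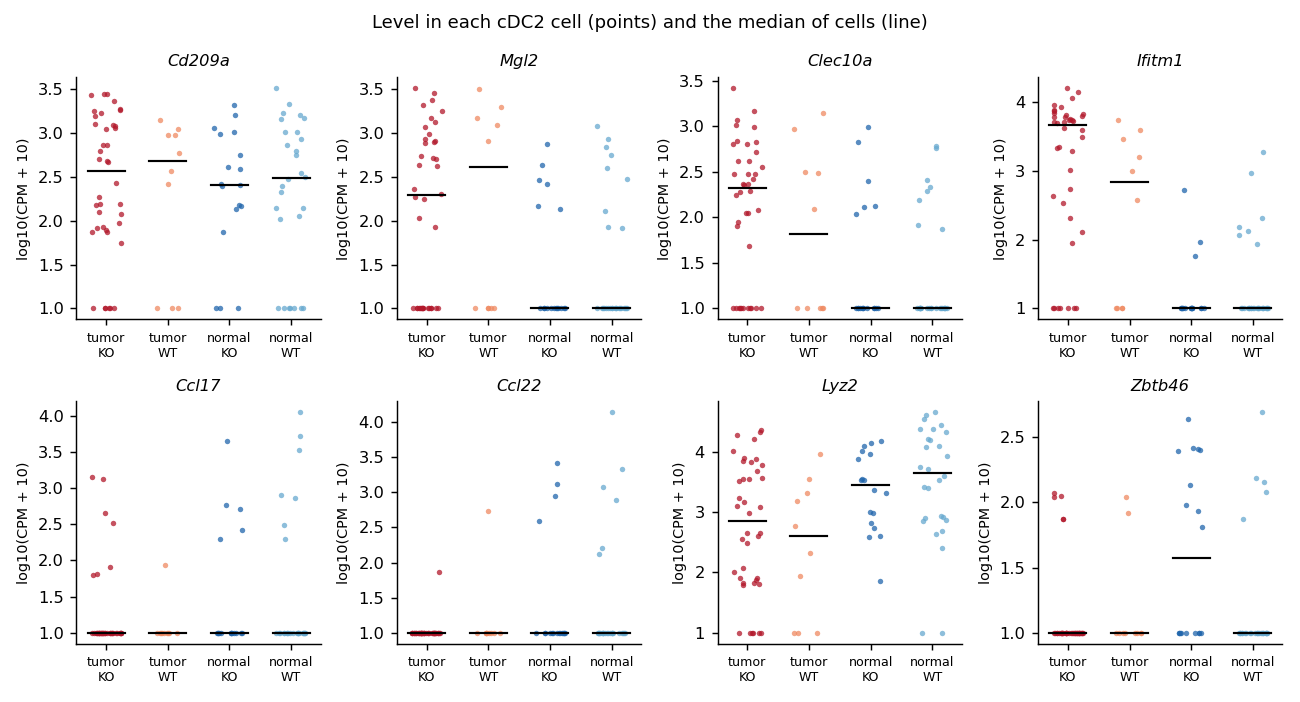
Each point is 1 cDC2 cell in a library (40, 10, 18 and 28 cells), as log10(CPM + 10) of that cell, and each line is the median of cells. Mgl2, Clec10a and Ifitm1 lie higher in both tumor libraries, Ccl17 and Ccl22 come from a few cells in every library, and Zbtb46 was found in 9 of 18 cells of normal Rab37 KO.

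Most MHC class II genes of tumor Rab37 KO were within 1.5-fold of normal Rab37 KO. Cd74, the invariant chain that guides MHC class II, had 17120, 20030, 19610 and 14510 CPM in tumor Rab37 KO, tumor WT, normal Rab37 KO and normal WT, and H2-Aa, an MHC class II chain, had 7673, 8448, 9423 and 5684 CPM. Of 12 measured genes of MHC class II presentation in Rab37 KO, 2 were higher in tumor and 0 lower. The median log2 ratio was -0.20, against 0.13 over all measured genes, of which 28.6% were higher and 16.7% lower. In WT, 5 of 10 were higher and 1 lower (median 0.65), against 21.2% higher and 25.5% lower of all measured genes. The 2 higher in Rab37 KO were H2-DMb2, a chain of the peptide-loading factor H2-DM (173 CPM in tumor against 63.4 CPM in normal lung), and Ctss, a protease of the invariant chain (1559 against 888 CPM). Ciita, the master activator of MHC class II, had 265 CPM in tumor WT (7 of 10 cells) against 57.5 CPM in normal WT (8 of 28), a ratio of 4.61 (2.35 to 9.37). In Rab37 KO it had 87.1 CPM in tumor and 103 CPM in normal lung, a ratio of 0.85 whose interval spanned 1. Because H2-Ab1 chose the cells, the other class II genes are not independent of the gate, and these values are descriptions.

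Cd83, a surface glycoprotein of activated dendritic cells that keeps MHC class II at the surface, was lower in tumor cDC2 of both genotypes. It had 87.1 CPM in tumor Rab37 KO (20 of 40 cells) against 966 CPM in normal Rab37 KO (15 of 18), 11.1-fold lower, and 91.7 CPM in tumor WT (3 of 10) against 743 CPM in normal WT (22 of 28), 8.10-fold lower. The tumor over normal ratios were 0.0901 (0.0659 to 0.121) and 0.123 (0.0556 to 0.239), and without the 16 other-type cells they were 0.112 and 0.103. The costimulatory ligand genes Cd80 and Cd86 moved less. Cd86 had 226, 143, 347 and 176 CPM in tumor Rab37 KO, tumor WT, normal Rab37 KO and normal WT, with ratios of 0.652 (0.488 to 0.878) in Rab37 KO, or 0.812 without the 16 cells, and 0.81 (0.411 to 1.5) in WT. For Cd80 the ratios were 0.847 and 0.70, with intervals that spanned 1. Cd274, which encodes the checkpoint ligand PD-L1, had 113 CPM in tumor Rab37 KO against 19.5 CPM in normal Rab37 KO, a ratio of 5.79 (2.17 to 21.8). It had 61.1 CPM in tumor WT against 53.6 CPM in normal WT, a ratio of 1.14 (0.359 to 3.16). That ratio became 5.34 without the other-type cells, when no remaining cell of normal WT held more than 1 UMI of it. T cells had 85.2, 52.7, 26.2 and 36.0 CPM of Cd274. Of the measured genes for costimulation and checkpoint ligands, 6 were higher and 6 lower of 14 in tumor Rab37 KO, where 28.6% and 16.7% of all measured genes were. In tumor WT 0 were higher and 3 lower of 10, a share of lower genes near the 25.5% of all measured genes, and without the other-type cells 3 were higher and 2 lower of 7.

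Nr4a3 and Hspa1a, genes of early activation and heat shock, were also lower in tumor than in normal lung. Nr4a3, an orphan nuclear receptor induced by activation, had 269 CPM in tumor Rab37 KO against 932 CPM in normal Rab37 KO and 40.8 CPM in tumor WT against 709 CPM in normal WT, 3.47-fold and 17.4-fold lower. Hspa1a, an HSP70 chaperone, had 652 CPM in tumor Rab37 KO against 3596 CPM in normal Rab37 KO and 968 CPM in tumor WT against 3183 CPM in normal WT. Of the immediate early and heat shock genes, 1 was higher and 9 lower of 19 measured in Rab37 KO and 0 higher and 14 lower of 18 in WT, against 16.7% lower of all measured genes in Rab37 KO and 25.5% in WT. Without the 16 cells 1 was higher and 14 lower of 18 in Rab37 KO and 1 higher and 13 lower of 18 in WT. These genes also respond to handling of tissue, and the part of handling in the difference was not tested.

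Of 19 measured transcription factors of the dendritic cell lineage, 1 was higher and 9 lower in tumor Rab37 KO, against 28.6% higher and 16.7% lower of all measured genes. Of 17 in WT, 3 were higher and 8 lower in tumor, against 21.2% and 25.5%. Without the 16 other-type cells, 1 was higher and 7 lower of 17 in Rab37 KO, against 34.7% and 14.3%. In WT, 3 were then higher and 6 lower of 15, against 23.4% and 18.6%. Irf8 had 38.2 CPM in tumor Rab37 KO against 107 CPM in normal Rab37 KO (ratio 0.356, 0.193 to 0.662), and 112 CPM in tumor WT against 199 CPM in normal WT (0.563, 0.265 to 1.09). Zbtb46 had 7.64 CPM in tumor Rab37 KO against 83.0 CPM in normal Rab37 KO, 10.9-fold lower, with only 5 UMIs in tumor. After thinning it was found in 5.0%, 0%, 37.5% and 11.1% of cells of tumor Rab37 KO, tumor WT, normal Rab37 KO and normal WT, so the high value stood in 1 library.

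Glycolysis and hypoxia genes were higher in tumor cDC2 of both genotypes. In Rab37 KO, 17 of 18 measured members were higher in tumor and 0 lower. Their median log2 ratio was 1.82, against 0.13 over all measured genes, of which 28.6% were higher and 16.7% lower. In WT 8 of 10 were higher and 0 lower, with a median of 0.91, against 0.01 over all measured genes (21.2% higher and 25.5% lower). Without the 16 other-type cells, 16 of 17 were higher and 0 lower in Rab37 KO, against 34.7% and 14.3% of all measured genes. In WT, 7 of 10 were then higher and 0 lower, against 23.4% and 18.6%. Ldha, lactate dehydrogenase A, had 964 CPM in tumor Rab37 KO (40 of 40 cells) against 190 CPM in normal Rab37 KO (15 of 18), and 367 CPM in tumor WT (9 of 10) against 203 CPM in normal WT (23 of 28). Its ratios were 5.06 (3.66 to 7.19) and 1.81 (1.15 to 2.81). Eno1, an enolase of glycolysis, had 730 and 161 CPM in tumor and normal Rab37 KO and 367 and 123 CPM in tumor and normal WT, ratios of 4.53 and 2.99. Hif1a, the oxygen-regulated transcription factor, had ratios of 4.53 (2.77 to 7.90) in Rab37 KO and 2.00 (1.02 to 3.83) in WT. Egln3, a prolyl hydroxylase that marks HIF proteins for decay, had 122 CPM in tumor Rab37 KO (19 of 40 cells) and 20.4 CPM in tumor WT (2 of 10), with 0 UMIs in either normal library. The difference was not shown to be particular to cDC2, since Ldha in T cells had 773 CPM in tumor Rab37 KO against 276 CPM in normal Rab37 KO and 585 CPM in tumor WT against 289 CPM in normal WT.

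**Figure D4:**
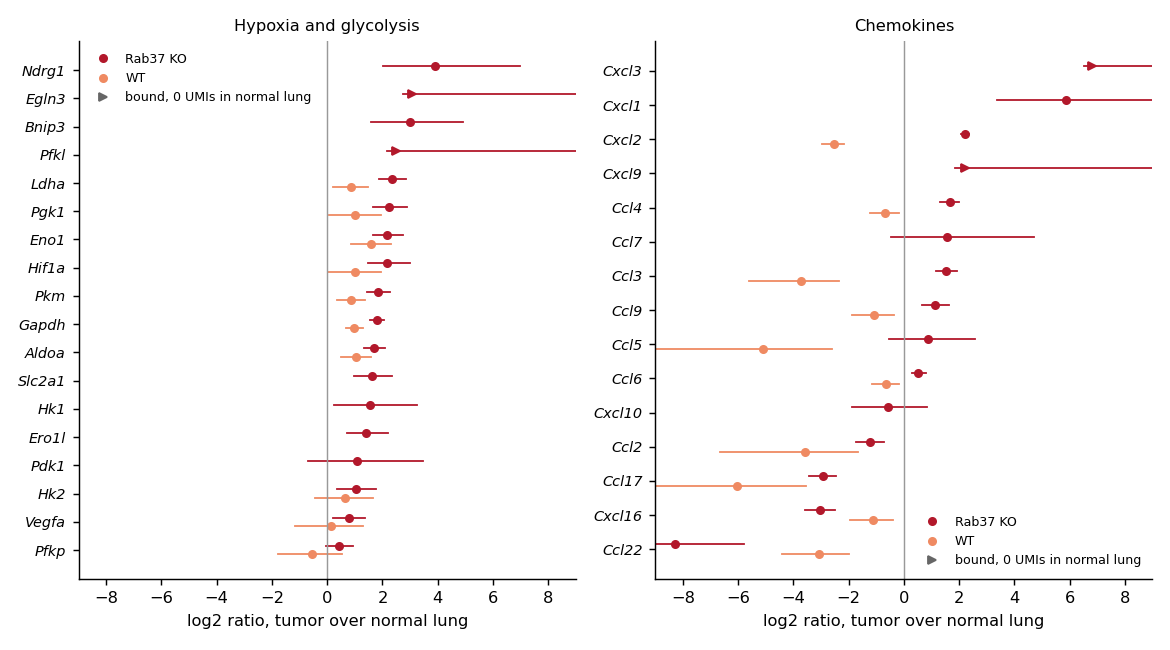
Log2 ratio of tumor over normal lung in cDC2 of Rab37 KO and WT for measured genes of hypoxia and glycolysis (left) and chemokines (right). Circles are ratios, triangles lower bounds where normal lung had 0 UMIs, and lines exact 95% counting intervals cut at the axis ends; in the left panel 17 of 18 Rab37 KO genes pass 1.5-fold higher, and on the right the 2 genotypes part for Cxcl2, Ccl3 and Ccl4.

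HIF factors bind the core ACGTG, so the promoters of this list were searched for ACGTG on either strand (ACGTG or CACGT as printed) over 300 bases, 250 before to 50 after the start. It was present in 12 of the 17 list genes with a RefSeq promoter (70.6%), against 1173 of 3589 measured genes (32.7%) and 5886 of 27025 genes (21.8%). A match describes these letters and shows no binding. The list was picked for roles in hypoxia and glycolysis, so its share of motifs says nothing about these cells. Below are the promoters of the 3 list genes with the motif that had the highest tumor over normal ratios in Rab37 KO and were measured in both genotypes, from RefSeq on GRCm38.p6, with every motif in capitals (overlapping matches run together).
Ldha, chr7:46845554-46845853, plus strand: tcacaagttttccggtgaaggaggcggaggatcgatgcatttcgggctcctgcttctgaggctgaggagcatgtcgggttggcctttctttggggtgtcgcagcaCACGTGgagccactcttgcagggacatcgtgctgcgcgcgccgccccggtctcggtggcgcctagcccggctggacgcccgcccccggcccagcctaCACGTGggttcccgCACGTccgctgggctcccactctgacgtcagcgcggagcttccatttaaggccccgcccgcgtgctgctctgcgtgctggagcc
Pgk1, chrX:106186850-106187149, plus strand: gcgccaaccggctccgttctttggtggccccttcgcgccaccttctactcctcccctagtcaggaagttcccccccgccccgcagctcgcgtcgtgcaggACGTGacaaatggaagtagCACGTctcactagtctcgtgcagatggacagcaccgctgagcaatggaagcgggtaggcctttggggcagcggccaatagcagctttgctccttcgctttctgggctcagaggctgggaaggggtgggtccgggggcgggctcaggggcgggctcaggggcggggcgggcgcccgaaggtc
Hif1a, chr12:73907617-73907916, plus strand: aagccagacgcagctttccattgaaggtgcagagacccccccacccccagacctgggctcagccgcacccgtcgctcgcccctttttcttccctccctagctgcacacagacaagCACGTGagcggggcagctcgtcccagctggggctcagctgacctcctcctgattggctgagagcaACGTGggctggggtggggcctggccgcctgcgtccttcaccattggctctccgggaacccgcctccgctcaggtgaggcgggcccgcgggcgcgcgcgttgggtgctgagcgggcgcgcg
Ldha held 3 such runs in the promoter printed, which is 1 of its 2 in the set searched. Pgk1, a kinase of glycolysis, and Hif1a held 2 each. Pgk1 had 580 CPM in tumor Rab37 KO against 122 CPM in normal Rab37 KO and 194 CPM in tumor WT against 95.8 CPM in normal WT, ratios of 4.76 (3.17 to 7.45) and 2.02 (1.05 to 3.82).

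Ifitm1 and Dab2 were the 2 genes ranked among the 10 largest tumor over normal ratios in both genotypes. Ifitm1, an interferon-induced membrane protein at chr7:140967221-140969825 (mm10, plus strand), had 4223 CPM in tumor Rab37 KO (33 of 40 cells) against 68.3 CPM in normal Rab37 KO (3 of 18), a ratio of 61.8 (36.8 to 113). In WT it had 1732 CPM in tumor (6 of 10 cells) against 176 CPM in normal lung (7 of 28), a ratio of 9.83 (7.06 to 13.9). Without the 16 other-type cells the ratios were 569 and 30.3. The value of 569 rests on 1 UMI in normal Rab37 KO, so it gives no size. T cells had 1110 CPM of Ifitm1 in tumor Rab37 KO and 1067 CPM in tumor WT, against 17.7 CPM in normal Rab37 KO and 18.4 CPM in normal WT, so the same difference stood in T cells at a lower level. Dab2, an endocytic adaptor, had 609 CPM in tumor Rab37 KO against 34.2 CPM in normal Rab37 KO and 438 CPM in tumor WT against 72.8 CPM in normal WT. The ratios were 17.8 (8.58 to 44.7) and 6.02 (3.44 to 10.9). Without the 16 cells they became 48.0 and 25.5, which rest on 2 UMIs in normal Rab37 KO and 3 UMIs in normal WT. The cytokine gene Mif had ratios of 6.22 and 6.10. Of 2408 genes measured in both comparisons, 187 were higher in tumor in both genotypes. They are 34.6% of the 540 higher in Rab37 KO and 36.7% of the 509 higher in WT. Another 190 were lower in both (48.3% of 393 and 31.3% of 607). Opposite directions stood in 105 genes higher in Rab37 KO and lower in WT (19.4% of 540 and 17.3% of 607). A further 36 were lower in Rab37 KO and higher in WT (9.16% of 393 and 7.07% of 509). Of all measured genes, 28.6% were higher and 16.7% lower in Rab37 KO, and 21.2% higher and 25.5% lower in WT.

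Tumor over normal ratios of several chemokine genes lay on opposite sides of 1 in the genotypes. In Rab37 KO, 9 of 15 measured were higher and 5 lower in tumor than in normal lung, while in WT 0 of 10 were higher and all 10 were lower. Of all measured genes, 28.6% were higher and 16.7% lower in Rab37 KO, and 21.2% higher and 25.5% lower in WT. Without the other-type cells the counts were 6 higher and 5 lower of 13, and 0 higher and 8 lower of 10. Ccl3, a ligand of CCR1, had 973 CPM in tumor Rab37 KO (28 of 40 cells) and 40.8 CPM in tumor WT (3 of 10), against 337 CPM in normal Rab37 KO and 540 CPM in normal WT. Ccl9 had 461 CPM in tumor Rab37 KO and 183 CPM in tumor WT, a ratio of 2.52 (1.56 to 4.30). Cxcl2, a neutrophil attractant, had 9675 CPM in tumor Rab37 KO, and T cells of that library had 9349 CPM, so by the T cell measure its level could not be told apart from background. In tumor WT 96.6% of its UMIs came from 1 cell. Cxcl3, a related attractant, had 1663 CPM in tumor Rab37 KO and 0 UMIs in the other 3 libraries, a ratio of at least 114 over normal Rab37 KO, and T cells of tumor Rab37 KO had 1115 CPM. Without the other-type cells that bound was 37.1.

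Ccl17 and Ccl22, neighbouring genes 58753 bases apart on chromosome 8 whose products attract CCR4-bearing T cells, were carried by few cells. Ccl17 had 81.0 CPM in tumor Rab37 KO (7 of 40 cells) and 10.2 CPM in tumor WT (1 of 10), against 615 CPM in normal Rab37 KO (5 of 18) and 674 CPM in normal WT (7 of 28). A single cell gave 83.3% of its UMIs in normal Rab37 KO and 52.3% in normal WT. The ratio of tumor over normal in Rab37 KO was 0.132 and became 0.945 without the 16 other-type cells, so the direction there rested on them, whereas in WT it was 0.0151 and became 0.0114. Ccl22 had 1.53, 71.3, 478 and 601 CPM in tumor Rab37 KO, tumor WT, normal Rab37 KO and normal WT. Cxcl16, the ligand of CXCR6, was seen more widely, with 65.7 CPM in tumor Rab37 KO (19 of 40 cells) against 537 CPM in normal Rab37 KO (13 of 18), and 183 CPM in tumor WT against 402 CPM in normal WT, 8.17-fold and 2.19-fold lower.

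Il1b, an inflammatory cytokine, had 2968 CPM in tumor Rab37 KO (37 of 40 cells) and 1488 CPM in tumor WT (7 of 10), against 1566 CPM in normal Rab37 KO (14 of 18) and 502 CPM in normal WT (13 of 28). The tumor over normal ratios were 1.90 (1.68 to 2.14) in Rab37 KO and 2.96 (2.33 to 3.78) in WT. The Rab37 KO over WT ratios were 2.00 (1.69 to 2.38) in tumor and 3.12 (2.54 to 3.85) in normal lung. Cells held a median of 33.5, 2.5, 6.5 and 0 UMIs in tumor Rab37 KO, tumor WT, normal Rab37 KO and normal WT. The highest cells held 346, 76, 77 and 28. In tumor WT another cell held 40, so the level there rested on few cells. T cells had 1916, 779, 97.1 and 134 CPM in the same order. Thinned to 4000 UMIs, 90.0%, 60.0%, 62.5% and 33.3% of cDC2 held Il1b, against 35.8%, 21.6%, 3.3% and 4.3% of T cells thinned to 2000 UMIs, whose median depths were 6660, 4025, 5668 and 4924 UMIs.

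Between the tumor libraries, Rab37 KO over WT, 1132 of 4229 measured genes (26.8%) were higher and 913 (21.6%) lower. S100a9 and S100a8, neutrophil calprotectin genes, had the largest ratios, 750 and 193, and they were 13.8 and 3.71 without the 8 other-type cells of tumor Rab37 KO. S100a9 in T cells of the same libraries had 8086 CPM in Rab37 KO and 14770 CPM in WT, against 7641 and 10.2 CPM in cDC2. Rab37 KO had 16 of 18 genes of the hypoxia and glycolysis list higher and 0 lower, and 10 of 14 lipid handling genes higher with 1 lower. Without the 8 other-type cells 14 of 17 were higher and 0 lower in the first list, and 8 of 12 higher with 1 lower in the second. Of all measured genes 25.9% were then higher and 18.9% lower. Apoe, a lipid carrier with a ratio of 29.6, and Arg1, an arginase with 498 CPM in tumor Rab37 KO and 153 CPM in tumor WT, stood below their T cell levels (3257 and 5744 CPM of Apoe, 1266 and 247 CPM of Arg1). All Arg1 UMIs of tumor WT came from 1 of its 10 cells. The same cell held 57 UMIs of Cxcl2 and 19 of Spp1. Cd44, a receptor of osteopontin and hyaluronan, had 503 CPM in tumor Rab37 KO (38 of 40 cells) and 173 CPM in tumor WT (9 of 10), a ratio of 2.90 (1.78 to 5.04). Mrc1, the mannose receptor, had 423 and 122 CPM, a ratio of 3.46 (1.95 to 6.78).

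Psmb9 and Ciita were lower in tumor Rab37 KO than in tumor WT. Psmb9, a subunit of the immunoproteasome, had 94.7 CPM in tumor Rab37 KO (24 of 40 cells) against 357 CPM in tumor WT (10 of 10), 3.77-fold lower (ratio 0.266, 0.173 to 0.414). Of 12 measured genes of MHC class I presentation 1 was higher and 6 lower. Their median log2 ratio was -0.52, and over the alternatives tried 5 to 8 were lower. Of 12 genes of MHC class II presentation 1 was higher and 2 were lower (16.7%), against 21.6% lower of all measured genes. Ciita was 3.04-fold lower (ratio 0.329, 0.203 to 0.544) and Rnase6, a secreted ribonuclease, 5.19-fold lower (41.2 against 214 CPM). Cst3, the protease inhibitor cystatin C that is abundant in dendritic cells, had 2441 CPM in tumor Rab37 KO against 5554 CPM in tumor WT, and 9891 CPM in normal Rab37 KO against 7407 CPM in normal WT. In normal lung the class I list had 0 higher and 1 lower of 11 in Rab37 KO, against 14.4% higher and 16.5% lower of all measured genes. Whether the genotypes differ more in tumor than in normal lung was not tested.

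Between the normal lung libraries, Rab37 KO over WT, 424 of 2937 measured genes (14.4%) were higher and 486 (16.5%) lower. Il1b above and P2ry10, a lysophosphatidylserine receptor (298 against 49.8 CPM, ratio 5.98, 3.25 to 11.9), were among the higher. Zbtb46 had 83.0 CPM in normal Rab37 KO against 23 CPM in normal WT (3.61, 1.36 to 11.2), and Tcf4, which is needed for plasmacytoid and some type 2 dendritic cells, 254 against 88.1 CPM (2.88, 1.73 to 4.93). Of 6 measured classical monocyte markers 0 were higher and 6 lower, and without the other-type cells 0 were higher and 5 lower of 5. Ly6c2 had 19.5 CPM in normal Rab37 KO (2 of 18 cells) against 341 CPM in normal WT (8 of 28), where 1 cell held 66 of the 89 UMIs. That cell held both Xist and Y-linked UMIs, and whether it is a mixed cell was not tested. Cx3cr1, the fractalkine receptor, had 14.6 CPM against 107 CPM, a ratio of 0.137 (0.0266 to 0.442) that rests on 3 UMIs in normal Rab37 KO. Ccr2, the chemokine receptor of monocytes and their progeny, had 215 CPM against 395 CPM (0.544, 0.373 to 0.782), and Sirpa 112 CPM against 241 CPM (0.465, 0.275 to 0.760). Without the other-type cells the ratio of Sirpa was 0.207, on 3 UMIs in 1 cell and 1 UMI in another cell of normal Rab37 KO. Lyz2, a lysozyme of myeloid cells, had a median of 30 UMIs per cell in normal Rab37 KO against 48 in normal WT, and 8 in tumor Rab37 KO against 3.5 in tumor WT. The 2 normal libraries held unequal levels of monocyte genes within the same gate, and the part of this in the other genotype differences of normal lung was not tested.

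Spp1, at chr5:104435118-104441050 (mm10, plus strand), the gene on which the series centres, was low in cDC2. It had 168 CPM in tumor Rab37 KO (16 of 40 cells), 214 CPM in tumor WT (3 of 10), 146 CPM in normal Rab37 KO (6 of 18) and 23 CPM in normal WT (3 of 28). One cell gave 90.5% of the UMIs in tumor WT and 63.3% in normal Rab37 KO. C1q macrophages of the same libraries had 1177, 10210, 34.8 and 214 CPM, and T cells 1017, 3224, 25 and 24.7 CPM, so Spp1 in tumor cDC2 did not exceed the T cell level. The Rab37 KO over WT ratio was 0.785 (0.489 to 1.32) in tumor and 6.37 (2.61 to 18.7) in normal lung, which in normal lung rested on 30 and 6 UMIs. Without the other-type cells these ratios were 0.510 and 11.9. The value of 11.9 rests on 1 UMI in normal WT, so it gives no size.

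Compared with cDC1 over the 3 libraries with at least 5 cells of both types (tumor Rab37 KO, normal Rab37 KO and normal WT), cDC2 had more RNA of the chemokine Ccl9 and the cytokine Osm and less of Irf8, Tlr3 and most tested cell cycle genes. By edgeR's quasi-likelihood test with library as a block and Benjamini-Hochberg adjustment, 129 of 4452 genes (2.9%) rose and 114 (2.56%) fell in cDC2 by 2-fold or more at an adjusted p under 0.05, with the genes of the gates left out. Ccl9 had 466, 212 and 390 CPM in cDC2 of tumor Rab37 KO, normal Rab37 KO and normal WT, against 10.0, 14.3 and 14.3 CPM in cDC1. The groups did not overlap (log2 fold change 4.51, SE 0.35, adjusted p 0.000445 in edgeR). Osm, the cytokine oncostatin M, had 234, 394 and 220 CPM in cDC2, against 0, 8.92 and 14.3 CPM in cDC1 (4.78, SE 0.47, adjusted p 0.00227 in edgeR). Clec10a had 293, 113 and 57.8 CPM in cDC2, against 45.2, 8.92 and 2.85 CPM in cDC1 (3.26, SE 0.39, adjusted p 0.00306 in edgeR). F13a1, coagulation factor XIII A, Vegfa, an angiogenic factor, and Ms4a4c were also higher, by 4.26, 3.61 and 3.55 on the log2 scale.

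Irf8, the factor of the cDC1 lineage, had 38.5, 108 and 201 CPM in cDC2, against 918, 1156 and 1076 CPM in cDC1 (log2 fold change -3.49, SE 0.41, adjusted p 0.00655 in edgeR). Tlr3, the receptor for double-stranded RNA, had 1.54, 14.8 and 3.86 CPM in cDC2, against 130, 166 and 153 CPM in cDC1 (-4.85, SE 0.51, adjusted p 0.00227 in edgeR). Gcsam had 0 UMIs in cDC2 and was at least 35.8-fold lower, on a floor of 3 counts over the group. Of 11 cycling genes tested, 7 fell, among them Mki67, Top2a and Cdk1, and 0 rose. Of 16 cytokine receptors of dendritic cell growth, 6 rose, among them Csf1r and Csf2rb, and 0 fell. Of 15 lysosome genes 5 rose, and of 11 C-type lectins 4 rose (Clec10a, Clec4a1, Clec4a2 and Clec4a3) and Clec12a fell. Of 12 MHC class I genes 2 fell, Tap2 and Psmb9. Mgl2 was 2.26 on the log2 scale above cDC1 with an adjusted p of 0.0768 in edgeR. Of 7 cDC2 markers tested 2 rose, Clec10a and Itgam, and 0 fell. Without normal Rab37 KO edgeR made 0 calls either way (615 genes at an unadjusted p under 0.05, on 2 libraries), while it called 196 higher and 155 lower without tumor Rab37 KO and 120 higher and 74 lower without normal WT. Csf3r and Il1r2, which are neutrophil markers, were among the genes that rose, and without the 16 other-type cells the counts were 70 higher and 71 lower.

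Compared with C1q macrophages over all 4 libraries, 94 of 3479 genes (2.7%) were higher in cDC2 and 119 (3.42%) lower by the same edgeR test. H2-DMb2 had 174, 155, 64.0 and 92.6 CPM in cDC2 of tumor Rab37 KO, tumor WT, normal Rab37 KO and normal WT, against 3.53, 5.78, 13.3 and 10.7 CPM in C1q macrophages (log2 fold change 4.41, SE 0.48, adjusted p 0.000324 in edgeR). Of 12 MHC class II genes 4 rose, all of them chains of H2-DM or H2-O, which govern peptide loading (H2-DMb1, H2-DMb2, H2-Oa and H2-Ob), and Lgmn, a lysosomal protease, fell. Napsa, an aspartic protease, had 563, 1123, 384 and 417 CPM in cDC2, against 81.2, 133, 70.7 and 24.9 CPM in C1q macrophages (3.0, SE 0.26, adjusted p 8.535e-05 in edgeR). Klrd1, the CD94 chain of lectin-like receptors, was 4.15 higher on the log2 scale (SE 0.33, adjusted p 7.731e-05 in edgeR). Ms4a7, a macrophage marker, had 3.08, 0, 0 and 7.71 CPM in cDC2, against 115, 348, 442 and 260 CPM in C1q macrophages (-5.94, SE 0.46, adjusted p 7.731e-05 in edgeR). The macrophage factor gene Maf was lower by -4.12 (SE 0.50, adjusted p 0.000986 in edgeR), and of 13 chemokines 5 fell (Ccl3, Ccl7, Ccl12, Cxcl2 and Cxcl10). Spp1 was -2.74 with an adjusted p of 0.479 in edgeR. Of 7 cDC2 markers tested, 0 rose and 0 fell (median log2 fold change -0.06). The macrophage gate required C1q genes, so genes that go with them differ in part by the choice of cells. Without tumor Rab37 KO, 60 genes rose and 68 fell.

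Against mature dendritic cells over 4 libraries edgeR called 2 of 2890 genes (0.0692%) higher and 8 (0.277%) lower in cDC2, with 343 at an unadjusted p under 0.05. Cd300a, an inhibitory receptor, had 139, 237, 290 and 239 CPM in cDC2 of tumor Rab37 KO, tumor WT, normal Rab37 KO and normal WT, against 45.1, 15.2, 59.4 and 81.0 CPM in mature dendritic cells (log2 fold change 1.92, SE 0.33, adjusted p 0.0449 in edgeR). Il4i1, an amino acid oxidase, had 6.17, 0, 14.8 and 23.1 CPM in cDC2, against 165, 547, 135 and 133 CPM (-4.02, SE 0.52, adjusted p 0.0235 in edgeR). Of 15 genes of NF-kB feedback and survival 3 fell (Traf1, Bcl2a1b and Bcl2a1d). Of 7 cDC2 markers tested, 0 rose and 0 fell (median log2 fold change 0.42). Without the library block edgeR made no call in this comparison (207 genes at an unadjusted p under 0.05), and DESeq2 with the block called 16 higher and 24 lower. Leaving out tumor Rab37 KO, tumor WT, normal Rab37 KO or normal WT gave 1 and 2, 15 and 29, 0 and 5, and 0 and 0 calls in edgeR, with 271, 427, 279 and 175 genes at an unadjusted p under 0.05. Mature cells numbered 8 to 51 per library, which limits this comparison.

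**Figure D5:**
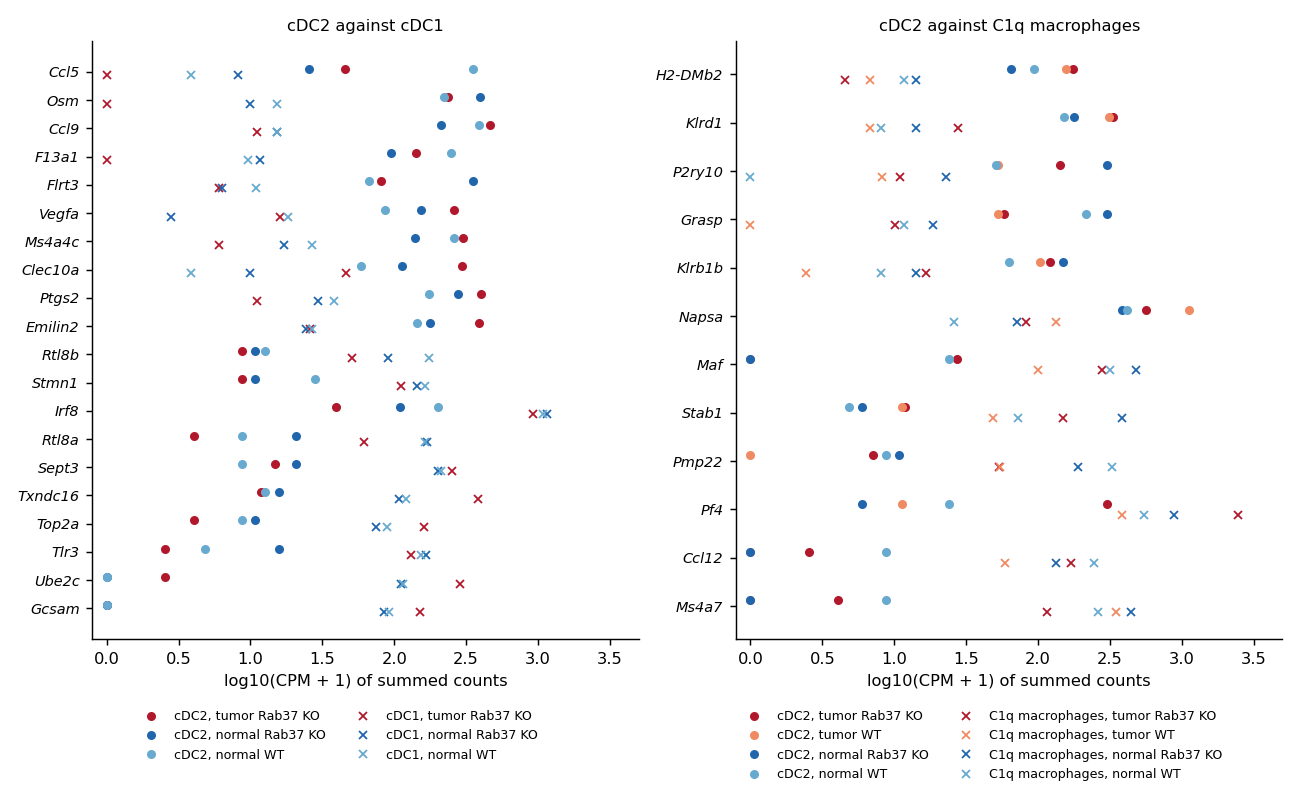
Level in each library, as log10(CPM + 1) of summed counts, of the genes named for cDC2 against cDC1 (left, 3 libraries) and against C1q macrophages (right, 4 libraries). Dots are cDC2 and crosses the other type, 1 per library; for Ccl9, Irf8, Tlr3, H2-DMb2, Napsa and Ms4a7 the dots and crosses do not overlap.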

How the data were processed

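Libraries were made from sorted live CD45+ cells with 10x Genomics 3' v2 kits, per the labels' protocols, and the files deposited by the authors hold raw UMI counts per gene and barcode. The submitters' processing notes name mm10 as the build. The software version was 3.0.1 for normal lung and 3.1.0 for tumor, per the file headers, so version and tissue cannot be told apart. Every barcode held at least 500 UMIs. No source used here names the aligner.

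Counts were summed over gated cells of a library with Python 3.11.15 (numpy 2.4.6, scipy 1.17.1, pandas 2.3.3). Scrublet was run in scanpy 1.11.5 per library and marked 4, 3, 80 and 179 passing cells of tumor Rab37 KO, tumor WT, normal Rab37 KO and normal WT, which were kept. Levels have Poisson intervals, ratios conditional binomial ones and shares Clopper-Pearson ones, and a count of 0 took a floor of 3 counts. Cell types were compared with edgeR 4.0.16 (DESeq2 1.42.0 as an alternative, R 4.3.3) on summed counts, with library as a block because both types come from the same libraries, after the 13 genes of the gates were left out. The code was tested on simulated data. cDC1 had at least 2 UMIs of Xcr1 or Clec9a, mature dendritic cells at least 3 of Ccr7 or Fscn1, C1q macrophages at least 10 of the C1q genes without Flt3 or Cd209a, and T cells at least 3 of Cd3e, Cd3d and Trac with at most 2 of H2-Ab1. Another type's RNA meant over 1% of UMIs from neutrophil genes, over 0.5% from alveolar macrophage genes, or at least 10 T or NK or 10 endothelial UMIs.

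Named genes were the 10 with the largest ratio each way per comparison of conditions (at least 100 CPM, 20 UMIs and 5 cells in the higher library, intervals apart). For cell types they were 10 each way against cDC1 and 6 each way otherwise among called genes. Up to 4 members per list with the largest ratios and a fixed set of cDC2 genes were added. Not every eligible gene is described, and 1 eligible gene is not reported here. Members, gene lists and tests were chosen with earlier results of these data known. Gene coordinates come from GENCODE vM21, which holds 31011 of 31053 feature IDs. The libraries are separate samples by their labels only, so p-values between cell types measure the spread over these libraries.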

Additional observations from a re-analysis of the deposited data

Results flagged for a closer look

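In 9 of the named genes the tumor over normal ratio of cDC2 was above 1 in Rab37 KO and below 1 in WT, with counting intervals that lay wholly on opposite sides of 1. The difference between the genotypes was not tested, since each ratio rests on 1 library per group, and the libraries also differ in sex makeup. The macrophage marker list, which holds Apoe, summed to 1510, 448, 776 and 1616 CPM in tumor Rab37 KO, tumor WT, normal Rab37 KO and normal WT. Without the 16 other-type cells, 5 of 6 macrophage and 5 of 6 classical monocyte markers were higher in tumor in Rab37 KO. In WT, 4 of 4 and 4 of 5 were lower. Of all measured genes, 34.7% were higher in Rab37 KO and 18.6% lower in WT. The part of this in the 9 genes was not tested. The chemokine gene Ccl3 had a ratio of 2.89 (interval 2.25 to 3.76) in Rab37 KO and 0.0755 (0.0203 to 0.198) in WT. Ctsd, a lysosomal protease, had 2.13 in Rab37 KO and 0.322 in WT, or 4.58 and 0.868 without the 16 cells carrying another type's RNA. Fabp5, a fatty acid carrier, had 2.95 in Rab37 KO and 0.136 in WT, or 7.93 and 0.210 without those cells. Apoe had 2.29 in Rab37 KO and 0.027 in WT, or 5.83 and 0.0266 without them, and its level in tumor cDC2 (603 CPM in Rab37 KO and 20.4 CPM in WT) was below that of T cells (3257 and 5744 CPM). Ier3, an early response gene, had 3.21 in Rab37 KO and 0.587 in WT, or 3.30 and 0.865 without them.

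Il1r2, a decoy receptor of interleukin 1 that neutrophils carry, had 3.58 in Rab37 KO and 0.409 in WT, or 12.95 and 0.57 without them. Stfa2l1, a stefin of neutrophils, had 41.9 in Rab37 KO, which became 1.03 without those cells, and at most 0.296 in WT. Il1rn had 7.20 in Rab37 KO and at most 0.319 in WT. Ly6c2 had 3.05 in Rab37 KO and at most 0.0897 in WT, where 1 cell of normal WT held 66 of 89 UMIs. Without those cells the Rab37 KO ratios of Il1rn and Ly6c2 were 2.37 and 5.25, and the WT ratio of Ly6c2 was 0.0668. The cell with 66 UMIs held both Xist and Y-linked UMIs and is not among the 16, so 0.0668 still includes it. The WT ratio of Il1rn was at most 1.78, which gives it no direction. The WT values of Stfa2l1, Il1rn and Ly6c2 are bounds, since tumor WT held 0 UMIs of them.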

How the results depend on the processing

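No paired analysis was possible for the comparisons of conditions because each group has 1 library. Counts of genes moved mainly with the minimum count. A minimum of 50 UMIs left the larger count on the same side in all 4 comparisons of conditions. With no filter it changed sides in all 4, but those counts give no direction, since a gene absent from a library took the floor of counts there. A gene with 1 UMI in the deeper library and none in the other was thus counted as higher in the library that lacked it. The part of such genes in the change was not tested. With the minimum of the main setting, the larger count changed sides for tumor over normal in WT without cells carrying another type's RNA or neutrophil markers (479 and 473). It also did so there with the mean of per-cell CPM (581 and 562), and for Rab37 KO over WT in tumor without mitochondrial and ribosomal protein genes (1035 and 1062). In the order higher, lower, a minimum of 50 UMIs gave 587 and 293 for tumor over normal in Rab37 KO, 159 and 235 in WT, 569 and 308 for Rab37 KO over WT in tumor and 117 and 141 in normal lung. With no filter beyond 1 UMI, the same 4 comparisons gave 2171 and 4906, 4907 and 1707, 1402 and 6376, and 2982 and 2936. For tumor over normal in WT, Xist cells alone gave 334 and 376, and leaving out cells with another type's RNA gave 412 and 328.

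For cDC2 against cDC1, edgeR gave 388 and 286 with no filter, 75 higher without the library block, and 70 and 71 without the other-type cells. Leaving out 1 library gave 0 to 196 higher and 0 to 155 lower, 0 and 0 without normal Rab37 KO, where 615 genes had an unadjusted p under 0.05. Against mature dendritic cells, counts were 16 and 24 by DESeq2, 50 and 93 with no filter, 0 and 0 without the library block (207 at an unadjusted p under 0.05), 0 and 2 with at least 2 UMIs of Flt3 and Cd209a, 10 and 22 without other-type cells, and 0 to 15 higher and 0 to 29 lower with 1 library left out. Against C1q macrophages, they were 184 and 379 with no filter, 43 and 38 without the library block, 78 lower in libraries with 20 cells of both types, 184 lower without other-type cells, and 60 to 104 higher and 68 to 115 lower with 1 library left out. The causes were not tested. Cell shares moved by less than their intervals. Limits to 20 cells per library for cDC1 and mature cells left too few libraries. Y-linked cells alone, and Xist cells alone in the other 3 comparisons, were not run, since a library in each held under the minimum of 10 such cells set for them. The 10 cells of tumor WT limit every comparison with that library.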
